A study of Drosophila melanogaster with 6 samples.

Results

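Tetraspanins are small membrane proteins that cross the membrane several times and gather other proteins, among them integrins, proteases and signalling receptors, into patches of the membrane. They also sort cargo into endosomes, lysosomes and secreted vesicles, and some of the vertebrate members are in common use as markers of such vesicles. In Drosophila a large part of the family lies in a tandem cluster at cytological position 42E, and single members are known from synapse formation, photoreceptor lysosomes, gut cell junctions and Notch signalling. The genes described here are all those with a symbol beginning Tsp and a digit, or lbm, in the platform annotation, named by a probe set that is annotated to no other gene. This gave 33 of the 11982 genes that the arrays named, 17 of them in the 42E cluster and 16 elsewhere. Each of the 33 had 1 probe set, and all 33 matched the reference gene table. Tsp42Eb and Tsp66A appear only on 4 probe sets shared with other genes and were not analysed here.

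RNA came from wing imaginal discs, the paired epithelial pouches of the larva from which the wing blade, wing hinge and back of the fly develop, dissected from larvae of the third instar at 96 h AED. The wild type was strain w1118 and the mutant was kdm510424, an allele of Kdm5, also called lid, whose product removes methyl groups from lysine 4 of histone H3, a mark of active promoters. Each genotype had 3 biological replicates of about 60 discs, 1 Drosophila Genome 2.0 array each. The strain of origin of kdm510424 before the mutation was not among the samples, so strain and mutation cannot be told apart in any difference below.

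The values are deposited log2 signals per probe set, and the median signal over all probe sets and arrays, 4.44, is used below as a mark of dim signal, since no detection calls were at hand. Array medians lay between 4.42 and 4.45, and the 3 arrays per genotype limit the precision of every value. The targeted gene checked the labels. Kdm5 read 10.09, 10.15 and 9.98 on the wild type arrays of replicates 1, 2 and 3, whereas the mutant arrays read 4.67, 3.70 and 4.49. The change was -5.79 ± 0.23 (log2, SE; limma adjusted p = 6.18e-06), and the exact two-sided permutation test gave 0.1, the smallest p that 3 arrays against 3 allow.

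Of the 33 tetraspanin genes 9 differed between the genotypes, 4 higher and 5 lower in the mutant discs, and 24 did not pass the test. Tsp26A fell furthest, to 41.4% of its wild type signal, followed by Tsp5D, Tsp68C, Tsp74F and Tsp42El. Tsp42Ea, Tsp29Fa, Tsp42Ec and Tsp2A rose, by 1.29-fold to 1.53-fold. Passing means an adjusted p under 0.05 in a limma fit over all 18769 probe sets with Benjamini-Hochberg adjustment. Among all named genes 21.7% passed, 9.76% higher and 11.9% lower, so 9 of 33 lies close to the background. Changes of at least 2-fold were found for Tsp26A alone, against 2.93% of all named genes. The arrays of the 2 genotypes did not overlap for 15 of the 33 genes, against 41.7% of all named genes. The median log2 change was -0.05 over the 33 and 0.00 over all named genes, and the median absolute change was 0.18 against 0.11. Of the 24 genes that did not pass, 7 had an unadjusted p under 0.05.

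**Figure D1:**
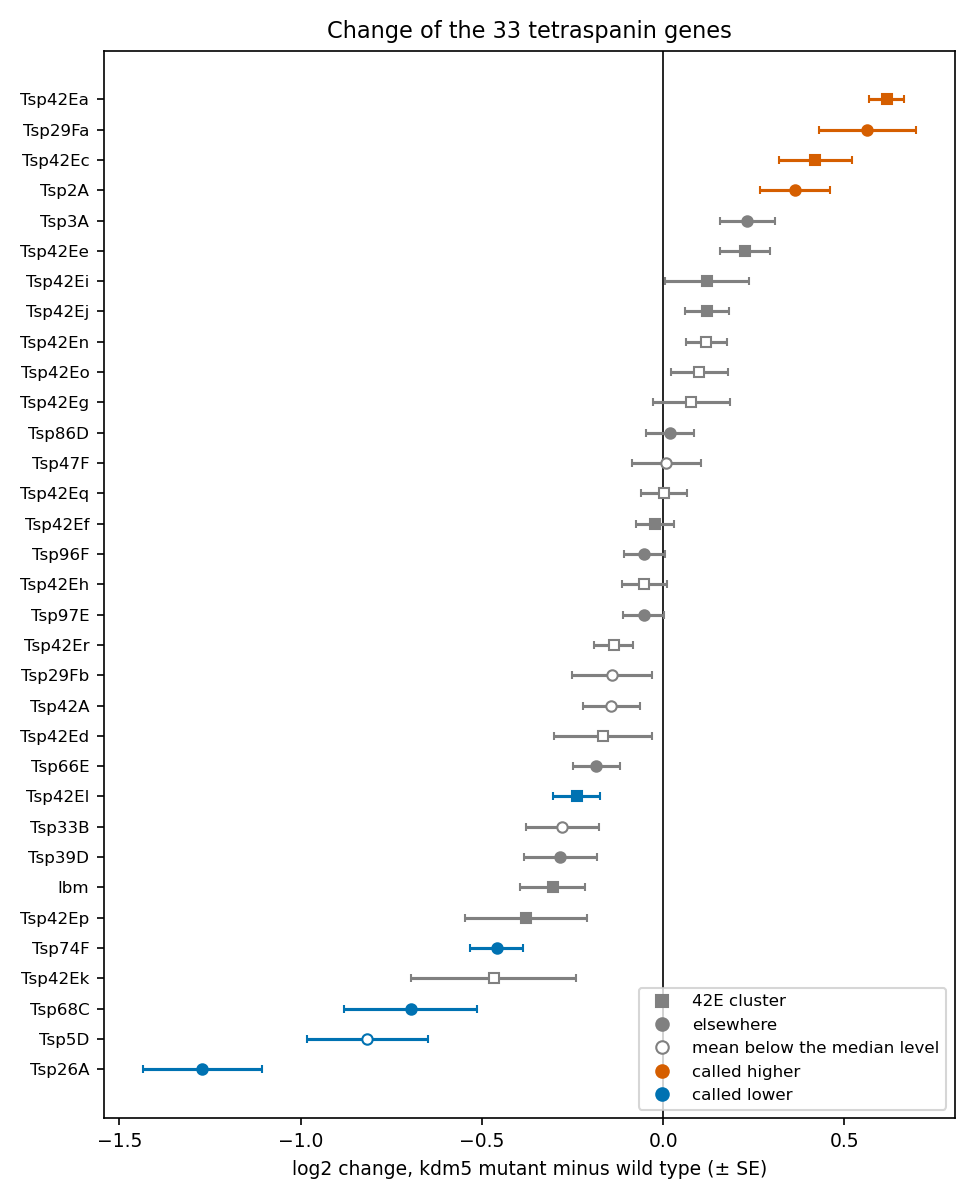
Log2 change (mutant minus wild type, x axis) of the 33 tetraspanin genes, with the moderated SE as bars; squares lie in the 42E cluster, circles elsewhere, and open symbols have a mean below the median signal of 4.44. Orange and blue mark the 4 genes that passed higher and the 5 that passed lower, from Tsp42Ea at 0.62 to Tsp26A at -1.27.

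Signal strength split the family. All 6 arrays lay above the median signal for 17 of the 33 genes, and all 6 lay below it for 11: Tsp5D, Tsp33B, Tsp42A, Tsp42Ed, Tsp42Eg, Tsp42Eh, Tsp42En, Tsp42Eo, Tsp42Eq, Tsp42Er and Tsp47F. For the other 5, Tsp42Ek, Tsp29Fa, Tsp29Fb, Tsp2A and Tsp68C, the arrays lay on both sides of it. By their mean over the 6 arrays 20 genes were above the median and 13 below. Of the 20, 8 passed (40%, against 32.3% of all named genes above the median), and of the 13 only Tsp5D passed (7.69%, against 5.35%). The size of a change at dim signal depends on the background of the array. This bears on Tsp5D in both genotypes, on Tsp29Fa and Tsp2A in wild type, and on Tsp68C in the mutant. It bears also on Tsp26A in the mutant and Tsp42Ec in wild type, whose lowest arrays, 4.49 and 4.52, were just above the median signal. By the manufacturer's naming, 25 of the probe sets end in _at, 3 in _a_at (transcripts of 1 gene) and 5 in _s_at, whose probes can match transcripts of more than 1 gene. The _s_at group holds Tsp42Ea and Tsp74F among the genes that passed, and Tsp29Fb, Tsp42Eh and Tsp66E among those that did not.

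Tsp26A belongs with Tsp3A and Tsp86D to the fly members of the TspanC8 group, named for the number of cysteines in the large outer loop. These bind the ADAM10-type protease Kuzbanian (kuz), carry it to the cell surface and promote Notch signalling. Tsp26A read 6.20, 6.10 and 6.03 in wild type replicates 1, 2 and 3, and 4.81, 5.21 and 4.49 in the mutant. The lowest wild type array stood 0.82 above the highest mutant array, and the mutant arrays spread more widely (SD 0.36 against 0.08, n = 3 each). The change was -1.27 ± 0.16 (log2, SE; limma adjusted p = 0.00182), and it passed under all 16 alternative settings, at -1.46 to -1.09.

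The other TspanC8 genes did not follow it. Tsp3A read 7.24, 7.35 and 7.26 in wild type and 7.64, 7.53 and 7.37 in the mutant, so every mutant array was above every wild type array, by 0.03 at the closest. Its change of 0.23 ± 0.08 missed the threshold (limma adjusted p = 0.0808). It passed under 7 of 16 alternatives, among them quantile normalization. Tsp86D read 7.53, 7.31 and 7.40 in wild type and 7.47, 7.42 and 7.40 in the mutant, and its arrays overlapped. Its change was 0.02, with a 95% interval of -0.14 to 0.18.

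Because these genes were read on the same arrays, their log2 difference within an array can be compared between genotypes. The difference of Tsp26A minus Tsp3A was -1.17 ± 0.11 over the wild type arrays and -2.67 ± 0.31 over those of the mutant (SD, n = 3 each). That of Tsp26A minus Tsp86D was -1.30 ± 0.08 and -2.59 ± 0.35. Neither overlapped between genotypes. Both gave an exact two-sided permutation p of 0.1, the smallest possible, also after Benjamini-Hochberg adjustment over the 4 pairs compared in this way, which were chosen after the values were seen. These differences are not touched by a scaling of whole arrays.

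In the reference gene table Tsp26A is the gene next to Kdm5 on chromosome arm 2L, with no other gene between them. The genes on either side of the pair were therefore read in the same way. The sphingolipid desaturase gene ifc, the neighbour of Kdm5 on its other side, rose from 9.82 ± 0.04 to 10.28 ± 0.04 (SD, n = 3; log2 change 0.46 ± 0.05 SE, limma adjusted p = 0.000821). The beta-galactosidase gene Gal, whose span overlaps the end of Tsp26A, read 6.07, 5.87 and 6.18 in wild type and 6.44, 6.17 and 5.49 in the mutant. Its mutant arrays lay on both sides of the wild type range and its change was -0.01 ± 0.23. The translation factor gene eIF4A, 1 gene further out than ifc, changed by -0.13 ± 0.05 and did not pass (adjusted p = 0.123). Its mutant arrays all lay below those of wild type, by 0.06 at the closest. Of these 3 neighbours none fell past the threshold. The sources used here do not give the place of the kdm510424 lesion, and whether it touches Tsp26A was not tested.

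**Figure D2:**
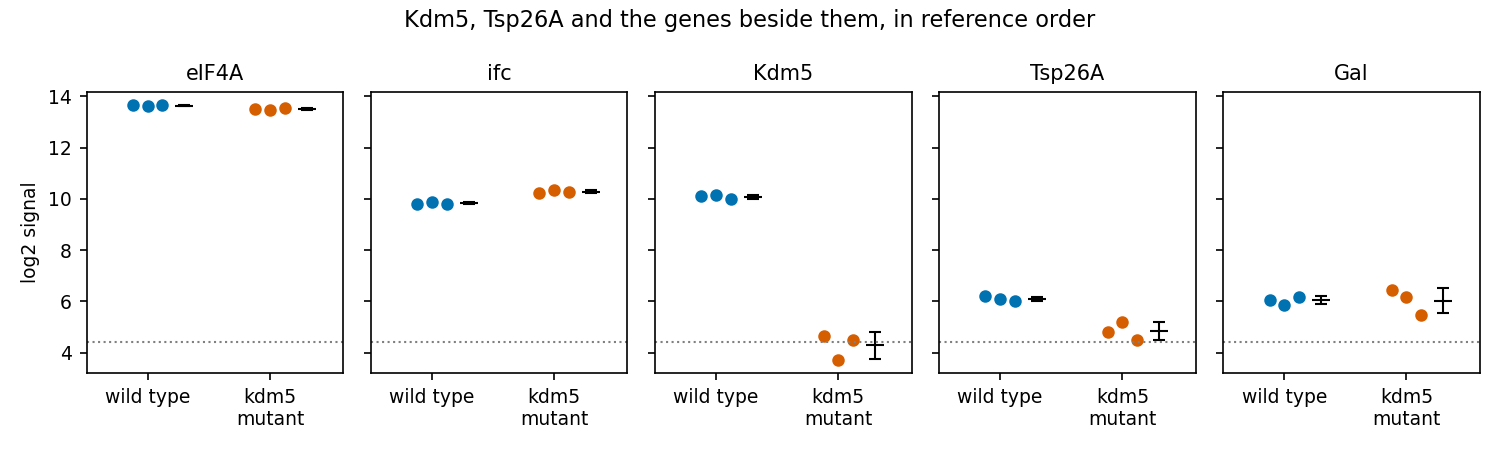
Log2 signal (y axis) on each of the 3 wild type (blue) and 3 mutant (orange) arrays for Kdm5, Tsp26A and the measured genes beside them, in the order of the reference table; bars give mean ± SD and the dotted line is the median signal of 4.44. Kdm5, Tsp26A and eIF4A are lower on every mutant array, eIF4A by 0.06 at the closest. For ifc every mutant array is higher, and the arrays of Gal overlap.

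A list of Notch pathway genes held the receptor, its ligands, proteases, gamma-secretase subunits and the ubiquitin ligase genes neur and mib1. The glycosyltransferase gene fng and the transcription factor gene Su(H) completed it. Of its 14 genes 8 were measured here. No value was at hand for the receptor gene N, the ligand gene Ser, nct, aph-1, mib1 and Su(H). Of the 8, 1 rose and 1 fell, against 9.76% and 11.9% of all named genes, with a median log2 change of 0.03. The ligand gene Delta fell by 0.28 ± 0.05 (limma adjusted p = 0.00999), from 11.30 ± 0.04 to 11.02 ± 0.05 (SD, n = 3). The gamma-secretase subunit gene pen-2 rose by 0.25 ± 0.05 (adjusted p = 0.0096), from 9.16, 9.22 and 9.20 to 9.45, 9.45 and 9.44. In both genes the groups did not overlap. Of the genes that did not pass, kuz itself changed by 0.19 ± 0.06 (adjusted p = 0.0957), with every mutant array above every wild type array. Its relative Kul changed by 0.01 ± 0.09.

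Tsp42Ea, the first gene of the 42E cluster, had the smallest SE and the smallest adjusted p in the family. With lbm (late bloomer), it is known from motor axons, where it helps form the embryonic neuromuscular synapse. Its signal was 10.39, 10.31 and 10.33 in wild type and 10.94, 10.97 and 10.98 in the mutant. The groups lay far apart beside their spread (SD 0.04 and 0.02, n = 3 each). The change was 0.62 ± 0.05 (log2, SE; limma adjusted p = 0.000159), a 1.53-fold rise that passed under all 16 alternatives, at 0.60 to 0.80.

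CG30159, whose span lies inside that of Tsp42Ea in the gene table, has a probe set of its own. Its signal went from 10.04 ± 0.05 to 10.66 ± 0.04 (mean ± SD over 3 arrays), a rise of 0.62 ± 0.05 (limma adjusted p = 0.000212). The 2 probe sets thus gave the same change to 2 decimals. The spans of Tsp42Eb and of a pseudogene also overlap that of Tsp42Ea. Whether the Tsp42Ea probes read these transcripts or that of CG30159, or the CG30159 probes that of Tsp42Ea, was not tested.

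Tsp42Ec, the next tetraspanin along the cluster that was measured, rose by 0.42 ± 0.10 (limma adjusted p = 0.0276). It read 4.88, 4.62 and 4.52 in wild type and 5.13, 5.17 and 4.98 in the mutant, and the nearest arrays of the 2 groups were 0.10 apart. It no longer passed when any one of 4 arrays was left out, replicates 2 and 3 of wild type and 1 and 2 of the mutant (limma adjusted p = 0.0755 to 0.0932). Tsp42Ee, the member with the strongest signal, read 12.25, 12.12 and 12.20 in wild type and 12.36, 12.35 and 12.53 in the mutant. The groups did not overlap, but the change of 0.23 ± 0.07 missed the threshold (adjusted p = 0.0618). It passed under 5 of 16 alternatives. Within each array Tsp42Ea minus Tsp42Ee moved from -1.84 ± 0.03 to -1.45 ± 0.09 (SD, n = 3; exact permutation p = 0.1, the smallest possible), and the arrays of the genotypes did not overlap in this difference.

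Tsp42El, further along, read 6.68, 6.64 and 6.49 in wild type and 6.40, 6.37 and 6.31 in the mutant. Its fall of 0.24 ± 0.06 on the log2 scale was the smallest change that passed (limma adjusted p = 0.041). It was lost with a spike-in centring of either kind, with quantile normalization (-0.16, adjusted p = 0.122) and without any 1 array except wild type replicate 3 (adjusted p = 0.0801 to 0.124). The next gene, lbm, read 4.95, 4.96 and 4.64 in wild type and 4.56, 4.54 and 4.54 in the mutant. The 3 mutant arrays were nearly equal and below all wild type arrays, and the change of -0.30 ± 0.09 missed the threshold (adjusted p = 0.0569). It passed under 6 of 16 alternatives.

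The rest of the cluster held 12 measured tetraspanins, none of which passed. Tsp42Ef, with strong signal, read 9.81, 9.68 and 9.70 in wild type and 9.71, 9.70 and 9.71 in the mutant, and its 95% interval for the log2 change ran from -0.15 to 0.10. Tsp42Ej, the lysosomal tetraspanin sunglasses of photoreceptors, read 5.64 ± 0.04 and 5.76 ± 0.09, a change of 0.12 ± 0.06. The widest spread was that of Tsp42Ek, at 4.98, 4.34 and 4.15 in wild type and 3.81, 3.92 and 4.34 in the mutant. Tsp42Ek changed by -0.47 ± 0.23 (limma adjusted p = 0.225) and Tsp42Ep by -0.38 ± 0.17 (adjusted p = 0.182), and in both the arrays overlapped. Tsp42Ed, Tsp42Eg, Tsp42Eh, Tsp42Ei, Tsp42En, Tsp42Eo, Tsp42Eq and Tsp42Er changed by -0.17 to 0.12.

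Read along the chromosome, the 17 measured cluster members did not share a direction. A positive change was read for 9 and a negative one for 8, the median was 0.00, and 2 passed higher and 1 lower (17.6%, against 21.7% of all named genes). Of the other genes inside the cluster that were measured, CG30159 and the glycosyltransferase gene Pgant3 both rose. The reading of CG30159 was not shown to be separate from that of Tsp42Ea. Pgant3, which lies between Tsp42Eo and Tsp42Eq, went from 8.75, 8.90 and 8.96 to 9.36, 9.36 and 9.30 (0.47 ± 0.07; limma adjusted p = 0.00254), while its tetraspanin neighbours changed by 0.10 ± 0.08 and 0.00 ± 0.06. Just outside the cluster, CG17002 on the Tsp42Ea side rose by 0.21 ± 0.05 (adjusted p = 0.0175). CG30156 next to it changed by 0.13 ± 0.12 and CG12836 beyond Tsp42Er by -0.05 ± 0.08, and neither passed.

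**Figure D3:**
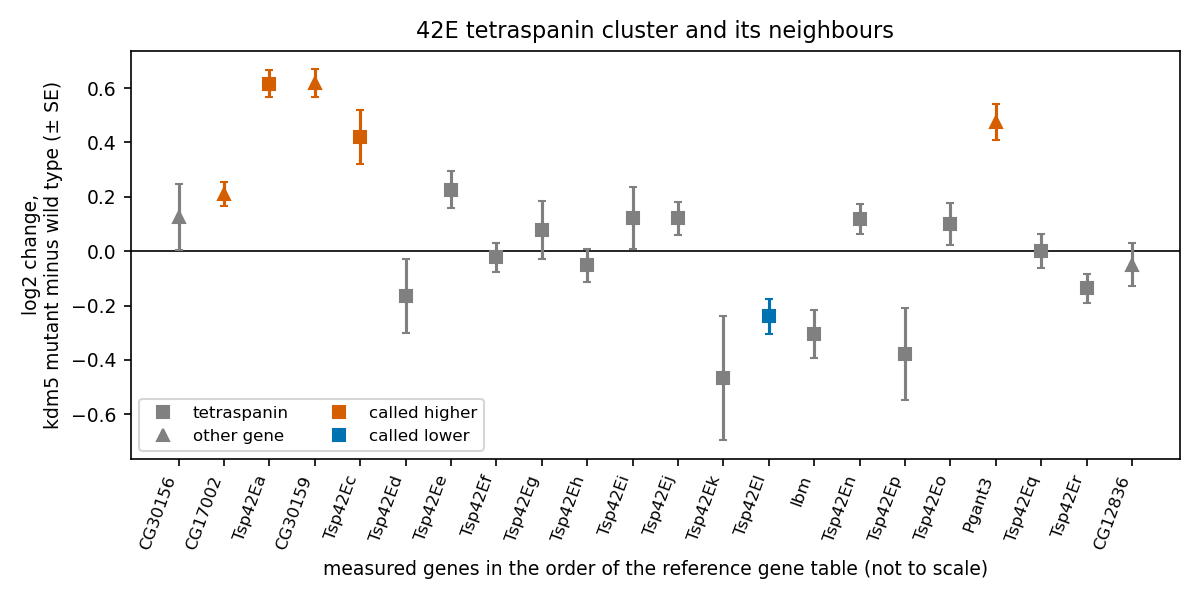
Log2 change (mutant minus wild type, y axis, bars are SE) of the measured genes in and beside the 42E cluster, in the order of the reference table and not to scale; squares are tetraspanins, triangles other genes, orange passed higher and blue passed lower. Tsp42Ea and CG30159 stand together at 0.62, Pgant3 rises between tetraspanins near 0, and Tsp42El is the single member that passed lower.

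Outside the cluster 6 of 16 genes passed, 4 lower and 2 higher (37.5%, against 21.7% of all named genes). By mean signal 11 of the 16 were above the median, where 32.3% of all named genes passed. Tsp5D read 3.40, 3.66 and 3.94 in wild type and 2.61, 3.12 and 2.82 in the mutant, all below the median signal. The groups did not overlap, and the change was -0.82 ± 0.17 (log2, SE; limma adjusted p = 0.0144). Without mutant replicate 3 it no longer passed (adjusted p = 0.0553). CG5928, whose span overlaps Tsp5D, fell as well, by 0.40 ± 0.07 (adjusted p = 0.00942), and CG4666 on the other side changed by -0.28 ± 0.09 and did not pass.

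Tsp74F had the strongest signal among the genes that fell, at 8.71, 8.71 and 8.51 in wild type and 8.22, 8.22 and 8.10 in the mutant. Every mutant array lay below every wild type array, and the change was -0.46 ± 0.07 (limma adjusted p = 0.00492). With the arrays centred on hybridization spike-ins it read -0.28 and no longer passed (adjusted p = 0.0521). The adjacent gene Prestin, an anion transporter of the family of the mammalian cochlear motor protein, fell by 0.27 ± 0.06 (adjusted p = 0.0212). CG7402 on the other side changed by 0.03 ± 0.07.

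Tsp68C read 5.31, 5.03 and 5.70 in wild type and 4.76, 4.82 and 4.37 in the mutant. The groups did not overlap, though the spread within each was wide (SD 0.34 and 0.24, n = 3 each). The change was -0.70 ± 0.18 (limma adjusted p = 0.0392). It missed the threshold with quantile normalization (adjusted p = 0.0519) and without any 1 array other than wild type replicate 2 (0.0594 to 0.115). On one side its neighbour in the gene table is Hml, which encodes hemolectin, a clotting protein of larval haemocytes. Hml read 6.58, 6.12 and 6.37 in wild type and 6.01, 5.74 and 5.63 in the mutant, a fall of 0.56 ± 0.14 (adjusted p = 0.0296). CG8750, on the other side, was dim and changed by 0.02 ± 0.06 (adjusted p = 0.865). Of the 11 haemocyte markers measured, 5 fell and 1 rose (54.5%, against 21.7% of all named genes and 32.3% of those above the median). The 1 that rose was eater, by 0.57 ± 0.16 (limma adjusted p = 0.0482). NimC1, Pxn, srp, crq and lz did not pass and changed by -0.14 to 0.01. The summed signal of all 11 (log2 of the sum of linear signals) fell from the range 10.74 to 11.07 to 10.19 to 10.33. Strong signals weigh most in this sum, among them Col4a1, which fell by 0.92 ± 0.11, and crq, which did not pass. PPO2 and PPO1 came next in mean wild type signal and fell furthest on the list. Their log2 changes were -1.56 ± 0.13 and -1.59 ± 0.21 (limma adjusted p = 0.000175 and 0.00197). The gene He also passed lower, at -0.80 ± 0.20 (adjusted p = 0.0353). The part of haemocytes in the Tsp68C change was not tested. In these bulk samples fewer cells of a type and less RNA per cell cannot be told apart.

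Tsp29Fa and Tsp29Fb are neighbours on arm 2L. Tsp29Fa rose by 0.56 ± 0.13 (limma adjusted p = 0.0265), from 4.43, 3.88 and 4.17 in wild type to 4.61, 4.83 and 4.72 in the mutant. Tsp29Fb read 4.45, 4.66 and 4.27 in wild type and 4.26, 4.23 and 4.46 in the mutant, with overlapping arrays and a change of -0.14 ± 0.11. The within-array difference of Tsp29Fa minus Tsp29Fb moved from -0.30 ± 0.42 to 0.40 ± 0.18 (SD, n = 3) without overlap, again with an exact permutation p of 0.1. Tsp29Fa no longer passed when replicate 3 of wild type, or replicate 2 or 3 of the mutant, was left out (adjusted p = 0.0718 to 0.088). CG34398, on the other side of Tsp29Fa, has 3 probe sets that differed in direction. The one with the strongest signal rose by 0.20 ± 0.05 (adjusted p = 0.0445), another changed by 0.20 ± 0.06 without passing (adjusted p = 0.0567), and the remaining one fell by 0.45 ± 0.08 (adjusted p = 0.00639).

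Tsp2A is the tetraspanin of the smooth septate junction, the barrier junction of the midgut and Malpighian tubules, where it works with Ssk, Mesh and Hoka. It rose by 0.36 ± 0.10 (limma adjusted p = 0.0395), from 4.16, 4.42 and 4.22 to 4.59, 4.79 and 4.51. The nearest arrays of the groups were 0.09 apart, and leaving out replicate 1 or 3 of wild type, or replicate 1 or 2 of the mutant, ended the call (adjusted p = 0.0862 to 0.12). Tsp2A lies within the span of MTPAP, which changed by -0.04 ± 0.05. CG12773, the gene on its other side, rose by 0.25 ± 0.05 (adjusted p = 0.0119). Of the 4 other genes on the septate junction list, Ssk, mesh, hoka and pck, none passed in limma (0 at an unadjusted p under 0.05). Ssk, mesh and hoka were below the median signal on all 6 arrays, with changes of 0.08 ± 0.14, 0.02 ± 0.07 and 0.07 ± 0.06. The 2 with the strongest signal were pck, a claudin of pleated septate junctions, at 12.12 ± 0.05 and 12.18 ± 0.01, and hoka at 3.85 ± 0.06 and 3.91 ± 0.08 (SD, n = 3). Of 7 gut markers 1 passed (14.3%, against 21.7% of all named genes), Mal-A1 at 0.24 ± 0.06 (limma adjusted p = 0.0352). The summed signal of the 7 was 7.35 to 7.39 in wild type and 7.32 to 7.35 in the mutant.

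**Figure D4:**
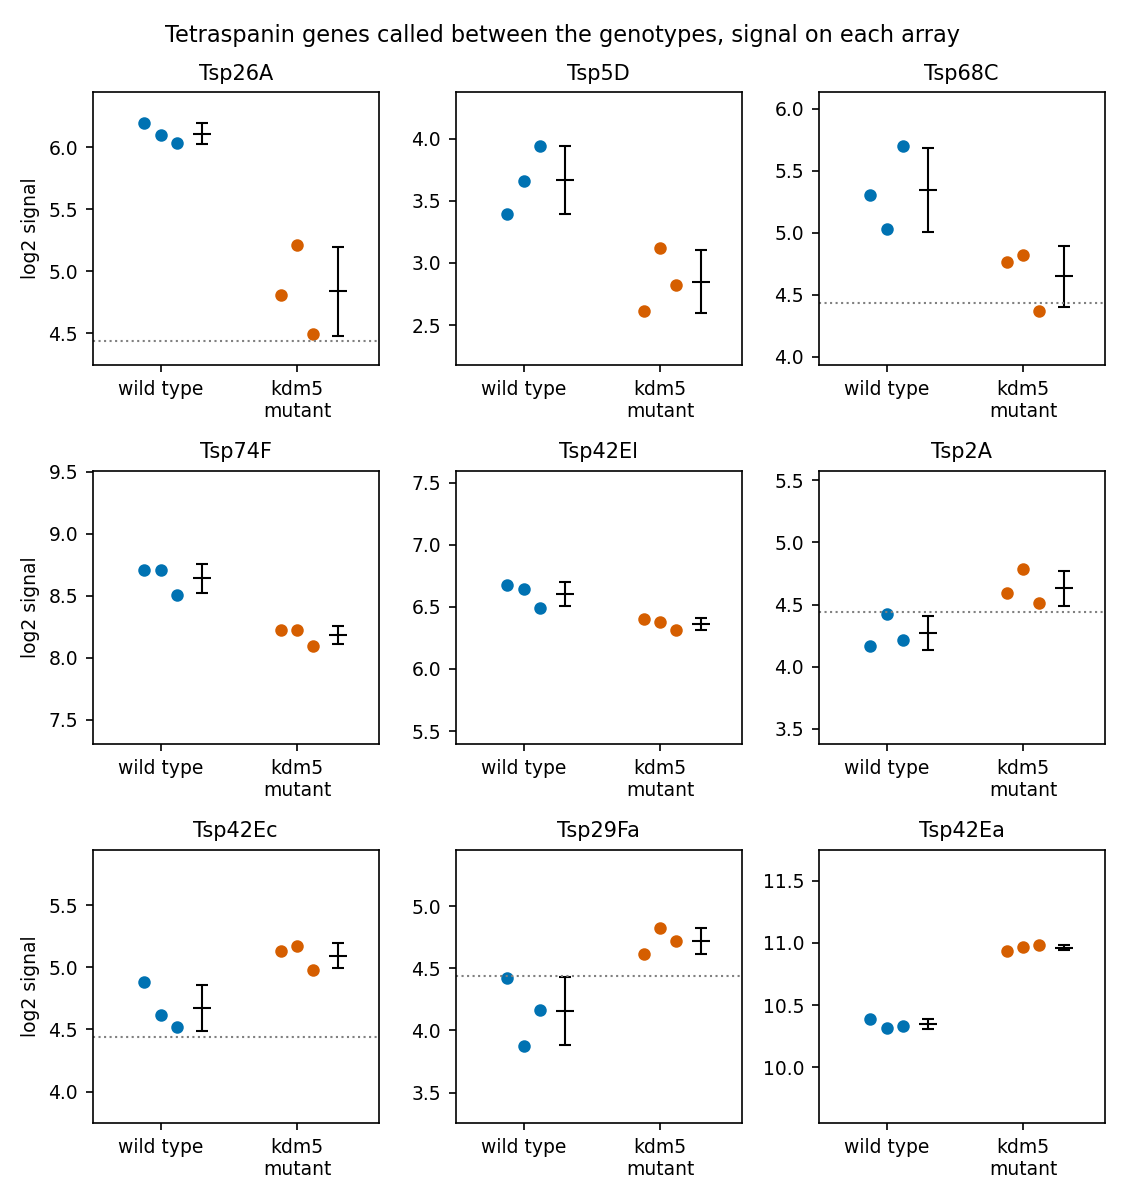
Log2 signal (y axis, spanning the same range in every panel) of the 9 tetraspanin genes that passed, on 3 wild type (blue) and 3 mutant (orange) arrays, left to right replicates 1 to 3; bars give mean ± SD and the dotted line, where in range, is the median signal of 4.44. No panel has overlapping groups, and the gap between the nearest arrays is widest for Tsp26A at 0.82 and narrowest for Tsp2A at 0.09.

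Outside the cluster 10 genes did not pass. Tsp97E, listed in the gene table under the synonym Tspan31, read 9.94, 10.05 and 9.88 in wild type and 9.90, 9.91 and 9.90 in the mutant, and its 95% interval for the change ran from -0.19 to 0.08. Tsp39D read 9.59, 9.63 and 9.32 in wild type and 9.15, 9.16 and 9.38 in the mutant. Of its mutant arrays 2 were below the wild type range and 1 inside it, and the change was -0.28 ± 0.10 (limma adjusted p = 0.102). Tsp96F changed by -0.05 ± 0.06. Tsp66E changed by -0.18 ± 0.07 (adjusted p = 0.104) with no overlap of the arrays. The dim genes Tsp33B, Tsp42A and Tsp47F changed by -0.28 ± 0.10, -0.14 ± 0.08 and 0.01 ± 0.10.

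Integrins are the classical partners of tetraspanins in adhesion. Of 9 integrin and integrin-linker genes 3 rose and 2 fell (55.6%, against 21.7% of all named genes), with a median log2 change of 0.15. By mean signal 7 of the 9 were above the median, where 32.3% of all named genes passed. The alpha subunit gene scb rose (log2 change with a 95% interval of 0.77 to 1.23, limma adjusted p = 0.000452), from 8.59, 8.75 and 8.39 to 9.57, 9.66 and 9.50, and the talin gene rhea rose by 0.49 ± 0.07 (adjusted p = 0.00247). The alpha subunit genes mew and ItgaPS5 fell by 0.55 ± 0.06 and 0.66 ± 0.08 (adjusted p = 0.000551 and 0.00147). The groups did not overlap in any of these 4.

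Genes that sort cargo into multivesicular endosomes and release vesicles formed another list, chosen like the others with earlier results of these data known. It held 13 genes, and no value was at hand for Rab7, Rab11 and Syx1A. Of the 10 measured 6 rose and none fell, with a median of 0.18. All 10 were above the median signal, where 1033 of 7274 named genes passed higher. Ykt6, a SNARE of membrane fusion, rose by 1.06 ± 0.06 (limma adjusted p = 3.78e-05), from 8.44, 8.52 and 8.38 to 9.53, 9.57 and 9.43. The ESCRT-0 genes Stam and Hrs rose by 0.30 ± 0.04 and 0.22 ± 0.05 (adjusted p = 0.00351 and 0.0151) and Rab27, a GTPase of vesicle release, by 0.32 ± 0.07 (adjusted p = 0.0196). Vps28 and shrb, of later ESCRT steps, made up the 6, and the range of the 6 changes was 0.17 to 1.06.

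Markers of other tissues, and some of the discs, moved in the same samples. Among all named genes 21.7% passed, and 32.3% of the 7274 above the median signal (1033 higher and 1315 lower). All 10 measured wing disc markers had a mean above the median signal. Of these 4 fell and none rose, with the smallest p for ptc at -0.65 ± 0.06 and Dll at -0.31 ± 0.06 (limma adjusted p = 0.000362 and 0.0147). The summed log2 signal of the 10 overlapped, at 14.11 to 14.12 in wild type and 14.00 to 14.13 in the mutant. The median change was -0.04. Other probe sets of some of these genes read differently. For vg 0.04 ± 0.06 and for Dll -0.14 ± 0.06 did not pass, Dll -0.36 ± 0.09 passed lower, and ap 0.58 ± 0.05 passed higher. Those of nub read 0.95 ± 0.11 and -0.59 ± 0.10, and both passed. The summed log2 signal of 9 salivary gland markers went from 12.04 to 13.20 in wild type to 9.76 to 9.87 in the mutant (7 fell). For 7 fat body markers it went from 11.80 to 12.20 to 10.21 to 10.34 (6 fell), and for 9 muscle markers from 10.49 to 10.75 to 9.80 to 10.01 (8 fell, 1 rose). For 6 tracheal markers it was 12.36 to 12.46 in wild type and 12.86 to 12.89 in the mutant (4 rose, 1 fell). For 11 markers of neurons and glia it was 12.53 to 12.57 and 12.54 to 12.62 (1 rose, 3 fell). Gli and nrv2, the strongest signals of these 11, weigh most in that sum, and neither passed. The shares that passed were 40% (wing disc), 77.8% (salivary gland), 85.7% (fat body), 100% (muscle), 83.3% (trachea) and 36.4% (neurons and glia). Below the median signal on all arrays were fkh of the salivary list, lz of the haemocyte list, Mal-A1, alphaTry and Acbp4 of the gut list, and repo, ChAT and para of the nerve list. The part of these tissues in the tetraspanin changes was not tested.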

How the data were processed

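RNA from wing discs of 2 genotypes was measured on 6 Affymetrix arrays, 3 per genotype, grouped by the titles in the labels. The deposited values are log2 signals per probe set, already normalized by the authors. Per the submitters' processing notes, GCRMA, PLIER, GCOS and Affymetrix Expression Console were involved; no versions are named, and the step that made the deposited values is not stated. Of 18952 probe sets, 183 manufacturer controls were left out. The platform annotation gave 1 symbol for 13647 of the remaining 18769, several for 402 and none for 4720. Gene order and current symbols were taken from the RefSeq table of GCF_000001215.4 (Release 6); no build is named for the array, so no coordinates are given.

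All 18769 probe sets entered limma 3.58.1 (R 4.3.3; lmFit and eBayes, genotype as the only term, two-sided, 4 residual degrees of freedom), with Benjamini-Hochberg adjustment over all of them. Changes are mutant minus wild type with the moderated SE, and intervals are 95%. The fit was tested on simulated data. Permutation tests used scipy 1.17.1. Across probe sets, r was 0.998 to 0.999 within a genotype and 0.989 to 0.990 between them. No label says whether replicates came from separate crosses, so a p-value here reflects the spread of these arrays alone, and no batch is given. Same-numbered samples of the genotypes did not deviate together (r = -0.11 to 0.01 over probe sets). So few correlations cannot show whether the numbers pair the samples, and the replicate number was used as an alternative only.

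The members and lists were chosen with earlier results of these data known. The rule for named genes gives every array's value for each tetraspanin that passed, values for the 4 of strongest signal among the others, up to 4 members of smallest p of each related list (2 of strongest signal where none passed), up to 2 of each marker list, and the genes in and beside the 42E cluster. Other neighbours, near misses and within-array differences were added after values were seen. Alternatives were a replicate block, 4 scalings, removal of dim probe sets, another prior (trended, robust), weights per array, 2 treatments of genes with several probe sets, and each array left out.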

Additional observations from a re-analysis of the deposited data

How the results depend on the processing

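Only 3 arrays per genotype and the lack of detection calls limit these values. Of the 9 tetraspanins that passed, Tsp26A and Tsp42Ea passed under all 16 alternatives; over the 9 genes, 113 of 143 alternative values kept their call, 30 lost it and 0 changed sign. Kdm5 kept its call under all 16. The labels do not say whether the replicate number pairs the samples. With this number as a block, 3 tetraspanins were higher and 3 lower against 4 and 5 without it. Tsp29Fa, Tsp42El and Tsp68C lost their calls (limma adjusted p = 0.0667, 0.0527 and 0.0991). The related lists had 6 rises against 10, and the marker lists 5 against 8. Quantile normalization gave 6 higher and 3 lower. The trended and robust prior gave 6 higher and 7 lower, and weights per array 5 and 7. Removal of dim probe sets gave 6 and 6 among the 20 tetraspanins it kept. Centring on hybridization spike-ins shifted the median of all probe sets from 0.01 to 0.19, with 7225 calls against 3439, and gave 10 higher and 3 lower tetraspanins with a median of 0.13, 19 rises in the related lists and 14 in the marker lists. Polyadenylated spike-ins (0.09) gave 5 higher, 4 lower and a median of 0.033. Lower calls made up 53.7% of all calls as deposited, 34.2% with the polyadenylated and 12.8% with the hybridization centring. With each array left out, 1 to 4 tetraspanins were higher (1 without wild type replicate 3 or mutant replicate 2, 2 without mutant replicate 1) and 3 to 6 lower (3 without wild type replicate 1 or mutant replicate 2 or 3). The related lists then had 6 to 8 rises (6 without mutant replicate 2), the marker lists 5 to 7 (5 without mutant replicate 1), and the tetraspanin median ran from -0.084 (without wild type replicate 3) to -0.042.

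Signs turned for 13 genes, none of which passed in the deposited scaling or in the settings that turned them. With hybridization spike-ins Tsp29Fb read 0.038, Tsp42A 0.037, Tsp42Ed 0.014, Tsp42Ef 0.16, Tsp42Eh 0.13, Tsp42Er 0.044, Tsp96F 0.13 and Tsp97E 0.13. With polyadenylated ones Tsp42Ef read 0.062, Tsp42Eh 0.033, Tsp96F 0.033 and Tsp97E 0.030. With quantile normalization Tsp42Eq read -0.0094 and Tsp47F -0.0013. With each array left out Tsp42Ef ran from -0.045 to 0.017, Tsp42Eg from -0.033 to 0.17, Tsp42Ei from -0.0084 to 0.21, Tsp42Eq from -0.055 to 0.034, Tsp47F from -0.053 to 0.11 and Tsp86D from -0.034 to 0.076. The causes were not tested.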
